A study of Mus musculus with 12 samples.

Results

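In livers whose hepatocytes had lost *Atg7*, 16 of 43 genes of the autophagy core machinery and of endoplasmic reticulum (ER)-phagy passed the test for a change in mRNA, 12 of them lower and 4 higher than in control livers. That is 37.2% of the members, under the 43.7% of all 13922 genes tested that passed. The lower genes included the deleted gene *Atg7* itself and *Atg3*, *Atg16l1*, *Atg9a*, *Atg2b*, *Atg4d* and *Stx17*. The higher ones were *Atg12*, *Snap29*, *Map1lc3a* and *Rtn3*, and none of these 4 was called when control mouse 2 was left out. When the same livers also carried the p62 T352A exchange, 14 of the 43 differed from *Atg7*-KO, 9 of them higher and 5 lower (32.6%, against 51.0% of all genes). *Sec62* encodes a translocon subunit of the ER that also acts as a receptor in ER-phagy. With both changes it was at 674 ± 65.9 normalized CPM (counts scaled to library size), against 161 ± 11.2 in *Atg7*-KO and 259.9 ± 36.3 in controls (SD, n = 3 each). Against controls, 5 members differed in livers with both changes, namely *Sec62* (higher) and *Atg7*, *Ambra1*, *Stx17* and *Fam134c* (lower), which is 11.6% of the members and equals the 11.6% of all genes. Of these, only *Sec62* was still called whichever mouse was left out.

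The 43 genes were listed as genes of autophagosome formation, of autophagosome fusion with lysosomes and of ER-phagy, with earlier results of these data known. Their rows were matched by symbol alone. All 43 were found among the 24411 genes of the table and all 43 were among the 13922 genes that passed the filter on low counts, with between 32 and 11491 counts in a mouse. *Fam134b* and *Fam134c* are listed under these older symbols and are annotated as *Retreg1* and *Retreg3*. The members *Atg12* and *Pik3c3* are on chromosome 18, and *Atg4a* and *Wdr45* are on chromosome X.

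Autophagy encloses cytoplasm in a double membrane, the autophagosome, and hands it to the lysosome for breakdown. The ULK kinase complex and the class III phosphatidylinositol 3-kinase (PI3K) complex start the membrane, ATG9 vesicles and the lipid-transfer proteins ATG2A and ATG2B feed it, and a pair of ubiquitin-like conjugation systems attach ATG8 proteins (the LC3 and GABARAP families) to its lipids. ATG7 is the E1-like enzyme that serves both conjugation systems, so hepatocytes without it cannot lipidate LC3. In ER-phagy, receptors in the ER membrane bind ATG8 proteins and so bring pieces of the ER into the autophagosome.

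Livers of C57BL/6 mice were taken at 3 months of age. Cont. mice carried *Atg7* alleles flanked by loxP sites (Atg7flox/flox) without Cre, *Atg7*-KO mice carried the same alleles with Alb-Cre, which the albumin promoter drives in hepatocytes, and T352A mice carried, besides both of these, the T352A exchange on both alleles of the endogenous p62 gene, *Sqstm1*, which was made to abolish the holding of KEAP1 in p62 bodies (Atg7flox/flox;Alb-Cre;p62T352A/p62T352A in the labels). The last group is called T352A below, and all of its mice thus also lack *Atg7* in hepatocytes. Each genotype had 3 mice with a column of RSEM expected counts from poly(A) RNA of whole liver, and totals were between 9671073 and 23285134 counts in cont., between 16157275 and 18480541 in *Atg7*-KO and between 16133626 and 17357183 in T352A mice. Mice that carry T352A without Alb-Cre were not analysed here, so T352A was compared only on the *Atg7*-deficient background. Nothing in the labels ties mice of one genotype to a litter or day.

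Some libraries stood apart. The mice numbered 1 had between 7 and 28 counts of *Xist*, the RNA of the inactive X chromosome, in all 3 genotypes, and the others had between 8578 and 18335. By these counts the mice numbered 1 were male and the others female. The main fit did not include sex, and its part in the differences between mice was not tested. A fit of the mice numbered 2 and 3 alone held only mice with high *Xist*. For *Atg7*-KO against cont. it gave 6 members higher and 14 lower, against 4 and 12 in the main fit. It called 7649 of 14060 genes there, against 6080 of 13922. *Ulk1*, *Atg16l2*, *Atg4c* and *Gabarap* were gained. As that fit also left out cont. mouse 1, sex and that mouse cannot be told apart. Cont. mouse 1 also had the largest total and differed from cont. mice 2 and 3 in many members: it was at 66.2 normalized CPM of *Ulk1* against 199 and 159.7, and at 40.5 of *Atg12* against 20.3 and 17.3. Calls of members that were lost or gained when a mouse was left out are given with their values below.

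Hepatocytes make up most of the liver's RNA, and the whole-liver values also hold the other cells. The summed level of 5 hepatocyte genes (*Alb*, *Apoa1*, *Ttr*, *Cps1* and *Serpina1a*) was 69789 to 121186 normalized CPM in cont., 35066 to 37189 in *Atg7*-KO and 107608 to 122719 in T352A mice, and 5 of 5 were called lower in *Atg7*-KO against cont. The summed level of 6 macrophage genes was 213 to 279 in cont., 838 to 891 in *Atg7*-KO and 146 to 282 in T352A mice, with 5 of 6 called higher in *Atg7*-KO. Those of 5 cholangiocyte genes (33.4 to 51.2, 823 to 1018 and 180.3 to 265) and of 6 stellate cell genes (106 to 121, 536 to 726 and 131 to 217) had the same order of cont. and *Atg7*-KO, with 4 of 5 and 5 of 6 called higher. Most of the cholangiocyte sum was *Spp1*, at means of 33.8, 871 and 172 in cont., *Atg7*-KO and T352A mice. Of the 5, 3 were called lower in T352A than in *Atg7*-KO. *Sox9* was not (means 30.8 and 25.7), and *Krt7* was called in no comparison. The 5 endothelial genes summed to 180.2 to 246, 198 to 208 and 96.4 to 106, and 5 lymphocyte genes to 13.1 to 25.2, 61.2 to 68.3 and 19.4 to 24.1. The endothelial genes did not move together in *Atg7*-KO against cont., where 3 of 5 were called higher and 1 lower. The lower gene was *Stab2*, at means of 113.6 in cont. and 49.9 in *Atg7*-KO. Of the 5 lymphocyte genes, 4 were called higher there. The 4 neutrophil genes in the table summed to under 10 in every mouse, and none of the lists had a marker at 0 in all mice. In *Atg7*-KO against cont., each of these sums except the endothelial one lay apart without overlap. In T352A against cont., the hepatocyte, macrophage and lymphocyte sums overlapped and the cholangiocyte, stellate cell, endothelial and neutrophil sums did not, and in T352A against *Atg7*-KO none overlapped. Within the overlapping lists, 1 of 5 hepatocyte genes was called lower in T352A than in cont. (*Cps1*, log2 fold change -1.17). Likewise, 1 of 5 lymphocyte genes was called higher (*Cd8a*, 2.44), and none of the macrophage genes was called. Their part in the changes of the 43 genes was not tested. In whole liver, fewer cells of a type and less RNA per cell cannot be told apart.

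A gene was called higher or lower at a Benjamini-Hochberg adjusted p under 0.05 over all 13922 genes and a fold change over 1.5, in edgeR's quasi-likelihood test with the 3 genotypes in 1 fit. Between *Atg7*-KO and cont., 12 members were called lower and 4 higher (37.2% of the 43), where 43.7% of all genes were called, 22.1% lower and 21.6% higher. The median log2 fold change was -0.23 over the members and -0.032 over all genes tested. In T352A against *Atg7*-KO, 9 members passed as higher and 5 as lower (32.6%), where 51.0% of all genes were called, 24.7% higher and 26.2% lower, and the medians were 0.12 and 0.0021. In T352A against cont., 1 passed as higher and 4 as lower (11.6%), where 11.6% of all genes were called, 6.25% higher and 5.34% lower, and the medians were -0.21 and 0.0044. The share of members called was below that of all genes in the first and second comparison and equal to it at 3 digits in the third, and 22 members were called in none. The mice of both groups did not overlap for 5 members that were higher and 16 that were lower in *Atg7*-KO than in cont. (29.2% and 26.3% of all genes, 55.5% together), for 17 and 11 in T352A against *Atg7*-KO (36.4% and 36.8%, 73.2% together) and for 6 and 11 in T352A against cont. (15.5% and 11.2%, 26.6% together). Upper-quartile scaling moved the medians of members and of all genes together, to -0.12 and 0.082 for *Atg7*-KO against cont. and to -0.024 and -0.13 for T352A against *Atg7*-KO, which turned the sign of the latter for the members. These comparisons share mice, and their values are set side by side below without a test between them.

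**Figure D1:**
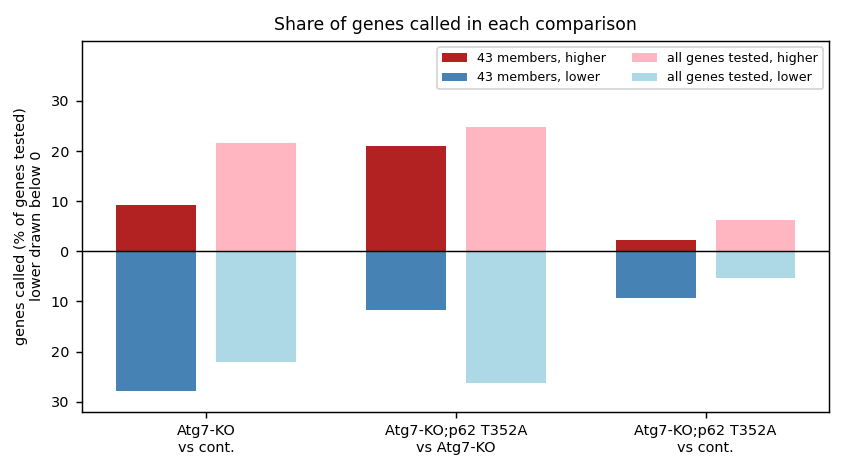
Percent of genes called in each comparison (y axis), for the 43 members (dark bars) and all 13922 genes tested (pale bars), with genes called higher drawn above 0 and genes called lower below it. In *Atg7*-KO against cont., the bar of members called lower (12 of 43) is longer than that of members called higher (4 of 43), and the pale bars are near 22% on both sides.

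**Figure D2:**
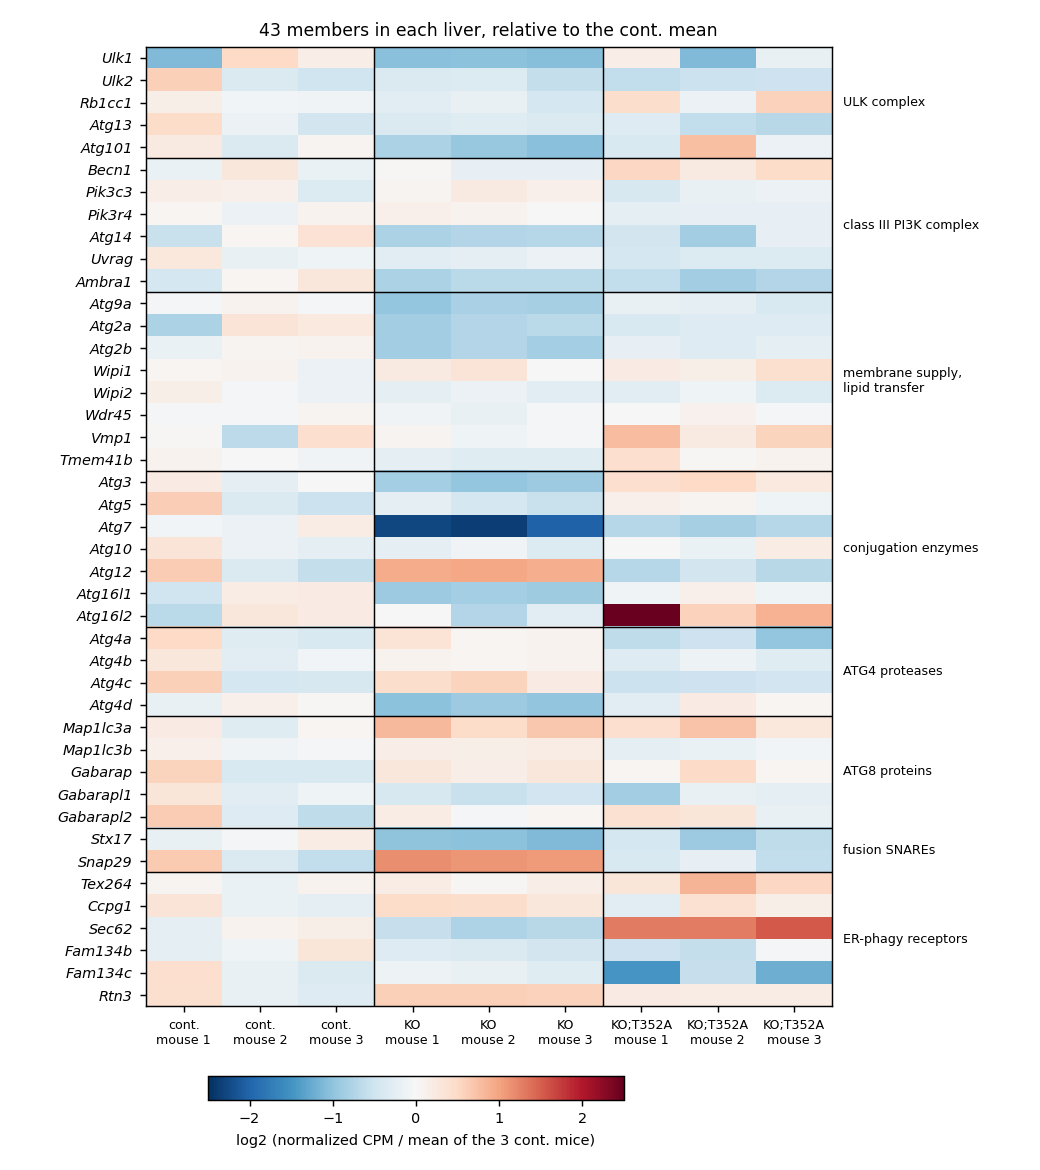
Level of each member (rows, grouped by role) in each of the 9 livers (columns), as log2 of normalized CPM over the mean of the 3 cont. mice (T352A mice are marked KO;T352A). The 3 *Atg7*-KO columns resemble each other, with *Atg7* darkest in blue and *Atg12* and *Snap29* in red, and *Sec62* is red in the 3 T352A columns. Cont. mouse 1 is opposite in colour to cont. mice 2 and 3 in several rows.

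The targeted gene was looked at first. *Atg7* (ENSMUSG00000030314, GRCm38 chr6:114643097-114860614, plus strand) was at 46.4, 44.2 and 55.4 normalized CPM in cont. mice 1, 2 and 3, at 10.1, 9.57 and 12.0 in *Atg7*-KO mice and at 29.7, 27.4 and 29.5 in T352A mice. The 3 groups did not overlap, and all 6 mice with Alb-Cre were below all 3 cont. mice. In *Atg7*-KO it fell to 0.217 of the cont. level (log2 fold change -2.20, SE 0.17, adjusted p = 2.55e-05). T352A livers held 2.73 times the *Atg7* counts of *Atg7*-KO livers (log2 fold change 1.45, SE 0.17, adjusted p = 0.000164) and remained under cont. (log2 fold change -0.75, SE 0.16, adjusted p = 0.0206). Leaving out any 1 of the T352A mice took the last call away (adjusted p 0.0524, 0.0544 and 0.07). Counts of the whole gene do not separate exons inside from exons outside the deleted part, and cells other than hepatocytes keep their *Atg7*. What the higher counts in T352A than in *Atg7*-KO livers come from was not tested. At the protein level, the paper reports ATG7 as nearly undetectable in *Atg7*-KO livers with or without the p62 mutation. The T352A exchange cannot be read from gene counts. *Sqstm1* itself was at 505, 341 and 314 in cont., 911, 871 and 959.7 in *Atg7*-KO and 497, 626 and 511 in T352A mice, so *Atg7*-KO lay above both other groups without overlap.

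RefSeq promoter windows (GRCm38.p6, 250 bases before to 50 after a start) were matched for 37 of the 43 members. They were searched on both strands for CACGTG (E-box, the core of the element that TFEB-family factors bind), TGACNNNGC (the core of the antioxidant response element, to which NRF2 binds) and GTAAACA (FOXO element). No match of one motif overlapped a match of another in these windows. CACGTG was in a window of 6 members (16.2% of 37), and in 8.09% of 27025 genes with a window. These were *Atg3*, *Atg5*, *Atg7*, *Atg14*, *Sec62* and *Fam134b*. TGACNNNGC was in a window of 5 members (13.5%), namely *Ulk2*, *Atg13*, *Vmp1*, *Map1lc3b* and *Rtn3*, against 14% of all genes, and GTAAACA was in none against 4.05%. A match of letters is a description and not a binding site. Of the members with CACGTG, *Atg3*, *Atg7* and *Sec62* are described below as called in both comparisons that involve *Atg7*-KO, and the stretches before their starts are shown for that reason, a choice made after the values were seen, with CACGTG in capitals, 5′ to 3′ on the plus strand. They were cut to at most 150 bases outside exons of protein-coding genes:
Atg3, chr16:45158707-45158784: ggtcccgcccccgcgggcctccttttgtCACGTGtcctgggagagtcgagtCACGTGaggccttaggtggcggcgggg
Atg7, chr6:114670946-114671095: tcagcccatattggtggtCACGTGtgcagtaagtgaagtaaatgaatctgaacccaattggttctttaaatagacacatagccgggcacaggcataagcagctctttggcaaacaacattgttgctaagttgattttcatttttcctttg
Sec62, chr3:30792726-30792874: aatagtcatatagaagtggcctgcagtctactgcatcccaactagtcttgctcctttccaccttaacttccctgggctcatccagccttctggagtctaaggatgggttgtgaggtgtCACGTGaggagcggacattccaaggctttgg
The *Atg3* stretch holds 2 matches, 94 and 71 bases before the RefSeq start. The match of *Atg7* is 132 bases before a RefSeq start that lies inside the annotated gene body, downstream of its first exon. That of *Sec62* is 32 bases before the start, in a stretch that the antisense gene *4933429H19Rik* also covers.

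The ULK complex is the kinase complex that starts autophagosome formation. Of its 5 genes, 1 was called lower in *Atg7*-KO against cont. and 2 were called higher in T352A than in *Atg7*-KO. Of all genes, 22.1% and 24.7% were called so. *Atg101*, which steadies ATG13 in the complex, was at 30.8, 20.6 and 27.7 normalized CPM in cont., 15.2, 13.7 and 12.8 in *Atg7*-KO and 20.1, 44.6 and 23.8 in T352A mice. All *Atg7*-KO mice were below all others, with T352A mouse 2 the highest of the 9 (log2 fold change -0.93, SE 0.29, adjusted p = 0.0273, then log2 fold change 1.08, SE 0.29, adjusted p = 0.0116 for T352A against *Atg7*-KO). The fall in *Atg7*-KO was not called without cont. mouse 3 or without any 1 of the *Atg7*-KO mice (adjusted p 0.0588 to 0.0909). *Rb1cc1*, which encodes the scaffold FIP200, was at 45.8, 39.3 and 39.0 in cont., 34.5, 36.6 and 30.5 in *Atg7*-KO and 55.8, 37.2 and 61.9 in T352A mice. It did not pass in *Atg7*-KO (log2 fold change -0.29, SE 0.20, adjusted p = 0.27) and was called higher in T352A than in *Atg7*-KO (log2 fold change 0.61, SE 0.20, adjusted p = 0.0297), a call lost without any *Atg7*-KO mouse or without T352A mouse 1 or 3 (adjusted p 0.0624 to 0.115). With the mouse number as a block it was not called either (log2 fold change 0.59, adjusted p = 0.0523), and with DESeq2 it was under the fold threshold (log2 fold change 0.58).

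*Ulk1*, the kinase itself, showed the widest spread among mice of one genotype in this complex. It was at 66.2, 199 and 159.7 in cont., 68.5, 69.5 and 67.4 in *Atg7*-KO and 159, 66.1 and 125 in T352A mice, so that cont. mouse 1 and T352A mouse 2 lay at the *Atg7*-KO level. The difference between *Atg7*-KO and cont. did not pass the test (log2 fold change -1.05, SE 0.40, adjusted p = 0.0569), and it did without cont. mouse 1 (log2 fold change -1.39, adjusted p = 0.00246), without T352A mouse 2 (-1.05, 0.0405) or with DESeq2 (-1.06, 0.021). Without cont. mouse 1 it was also called higher in T352A than in *Atg7*-KO (log2 fold change 0.77, adjusted p = 0.0269). *Ulk2* and *Atg13* were between 36.9 and 54.3 normalized CPM in 8 of the 9 mice and at 92.5 and 82.1 in cont. mouse 1, and neither was called.

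The class III PI3K complex makes the lipid that marks the forming membrane. Of its 6 genes, 2 were called lower in *Atg7*-KO against cont. (22.1% of all genes) and none in T352A against *Atg7*-KO (51.0% of all genes called). In T352A against cont., 1 was called lower (5.34% of all genes). *Ambra1*, a regulator of the complex, was at 26.6, 37.3 and 43.9 in cont., 20.8, 22.6 and 22.6 in *Atg7*-KO and 23.6, 19.6 and 21.7 in T352A mice. Both *Atg7*-deficient groups were below all 3 cont. mice (log2 fold change -0.70, SE 0.20, adjusted p = 0.0158 for *Atg7*-KO and log2 fold change -0.73, SE 0.20, adjusted p = 0.0419 for T352A, each against the shared cont. mice). The call in *Atg7*-KO was lost without cont. mouse 3 or any 1 *Atg7*-KO mouse (adjusted p 0.0481 to 0.062, the lowest with a fold change under 1.5), and that in T352A was lost without any 1 of the 9 mice except cont. mouse 1 (0.0685 to 0.122). *Atg14*, the subunit that directs the complex to autophagy, was at 20.1, 30.6 and 38.1 in cont., 17.1, 17.8 and 18.0 in *Atg7*-KO and 21.6, 16.2 and 25.6 in T352A mice (log2 fold change -0.74, SE 0.25, adjusted p = 0.0341 for *Atg7*-KO). That call was lost without cont. mouse 2 or 3 or any 1 *Atg7*-KO mouse (0.0523 to 0.112). Without cont. mouse 1, *Atg14* was called lower in T352A than in cont. (log2 fold change -0.70, adjusted p = 0.0238).

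*Becn1*, the scaffold Beclin 1, was at 57.8, 79.7 and 58.2 in cont., 66.9, 57.0 and 56.4 in *Atg7*-KO and 93.2, 76.3 and 89.4 in T352A mice. The T352A mice were all above the *Atg7*-KO mice by a difference that passed the adjusted p and not the fold change (log2 fold change 0.52, SE 0.18, adjusted p = 0.0357), and it passed both without T352A mouse 2 (log2 fold change 0.61, adjusted p = 0.0333). Reads of *Becn1* are uncertain, since 43.9% of its exon bases are shared with *Cntd1* by position. *Pik3c3*, the lipid kinase, was at 14.2 to 21.9 normalized CPM in the 9 mice, *Pik3r4* at 17.0 to 21.7 and *Uvrag* at 22.0 to 35.5, and none of the 3 was called. The gene model *Gm45187* overlaps 17.6% of the *Uvrag* exon bases.

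The genes for membrane supply and lipid transfer held 3 calls in *Atg7*-KO, all lower, among 8 genes (37.5%). Of all genes, 43.7% were called there, 22.1% lower. *Atg9a*, the scramblase of the vesicles that seed the membrane, was at 66.2, 73.4 and 66.4 in cont., 35.2, 39.0 and 38.8 in *Atg7*-KO and 60.5, 57.9 and 52.8 in T352A mice. The 3 groups did not overlap, with *Atg7*-KO lowest (log2 fold change -0.87, SE 0.14, adjusted p = 0.00127) and T352A between (log2 fold change 0.60, SE 0.14, adjusted p = 0.00655 against *Atg7*-KO). The fall in *Atg7*-KO was called under all 18 alternatives, and that between T352A and *Atg7*-KO under 9 of them. It went under a fold change of 1.5 with DESeq2 (log2 fold change 0.57), with upper-quartile scaling (0.46) and without *Atg7*-KO mouse 1 or T352A mouse 1 (0.55 and 0.56). Of *Atg9a* transcript stretches, 28.8% also occur in other genes, chiefly the overlapping gene model *Gm29253*. *Atg2b*, a lipid-transfer protein, was at 33.7, 39.9 and 40.1 in cont., 20.7, 22.7 and 21.0 in *Atg7*-KO and 33.0, 30.1 and 32.4 in T352A mice, again with *Atg7*-KO below both other groups (log2 fold change -0.82, SE 0.15, adjusted p = 0.00192). Its difference between T352A and *Atg7*-KO passed the adjusted p and not the fold change (log2 fold change 0.57, SE 0.15, adjusted p = 0.00959), and it passed both without *Atg7*-KO mouse 2 or T352A mouse 2 (log2 fold change 0.61 in each).

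Its relative *Atg2a* was at 44.3, 96.2 and 90.8 in cont., 42.5, 46.6 and 48.2 in *Atg7*-KO and 59.6, 62 and 61.7 in T352A mice, so cont. mouse 1 lay within the *Atg7*-KO range. It was called lower in *Atg7*-KO (log2 fold change -0.75, SE 0.26, adjusted p = 0.0389), and the call was lost without any 1 of the 9 mice except cont. mouse 1 (adjusted p 0.0523 to 0.117). Without cont. mouse 1, *Atg2a* was also called lower in T352A than in cont. (log2 fold change -0.61, adjusted p = 0.00647). *Wipi1*, *Wipi2* and *Wdr45*, which read the lipid mark, and *Tmem41b* and *Vmp1*, scramblases of the ER, were not called in any comparison. Of these, *Tmem41b* passed the adjusted p and not the fold change for T352A against *Atg7*-KO (log2 fold change 0.46, SE 0.16, adjusted p = 0.0307), and *Vmp1* was at 166, 103 and 218 in cont., 170.2, 151 and 159 in *Atg7*-KO and 279, 189 and 238 in T352A mice. The gene model *Gm45208* overlaps 24.7% of the *Wdr45* exon bases.

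Of 7 genes of the conjugation enzymes, 4 were called in *Atg7*-KO and 5 between T352A and *Atg7*-KO, where 43.7% and 51.0% of all genes were called. The deleted gene *Atg7* is counted in both. *Atg3*, the E2-like enzyme that hands ATG8 proteins to lipid, was at 91.6, 68.2 and 79.9 in cont., 44.3, 41.1 and 42.6 in *Atg7*-KO and 106, 113 and 94.6 in T352A mice. The groups did not overlap, with *Atg7*-KO lowest and T352A highest (log2 fold change -0.90, SE 0.17, adjusted p = 0.00204, and log2 fold change 1.29, SE 0.17, adjusted p = 0.000281 for T352A against *Atg7*-KO), and both calls stood under all 18 alternatives. T352A livers did not pass the test against cont. (log2 fold change 0.39, SE 0.16, adjusted p = 0.156). *Atg16l1*, which places the conjugation machinery on the membrane, was at 25.2, 40.6 and 41.3 in cont., 19.2, 19.7 and 19.2 in *Atg7*-KO and 33.5, 39.0 and 33.0 in T352A mice. Its *Atg7*-KO mice were below all 6 others, by log2 fold change -0.88, SE 0.20, adjusted p = 0.00685 against cont. and log2 fold change 0.86, SE 0.20, adjusted p = 0.0062 for T352A against *Atg7*-KO, and T352A mice lay within the range of cont. mice.

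*Atg12*, the ubiquitin-like protein that ATG7 activates for attachment to ATG5, moved the other way. It was at 40.5, 20.3 and 17.3 in cont., 49.3, 50.8 and 48.7 in *Atg7*-KO and 15.8, 18.8 and 16.1 in T352A mice, and cont. mouse 1 was nearer to the *Atg7*-KO mice than to the other cont. mice. The rise in *Atg7*-KO (log2 fold change 0.92, SE 0.29, adjusted p = 0.0251) was lost without cont. mouse 2 or 3 or any 1 *Atg7*-KO mouse (adjusted p 0.0617 to 0.15), and the lower level in T352A than in *Atg7*-KO (log2 fold change -1.55, SE 0.29, adjusted p = 0.0019) was called under all 18 alternatives. *Atg16l2*, a relative of *Atg16l1*, was at 7.33, 14.3 and 13.5 in cont., 11.6, 7.07 and 9.73 in *Atg7*-KO and 64.8, 17.4 and 21.4 in T352A mice. T352A mouse 1 stood far above the rest. The difference between T352A and *Atg7*-KO (log2 fold change 1.87, SE 0.49, adjusted p = 0.00973) was still called without that mouse, at a log2 fold change of 1.04 (adjusted p = 0.0283). *Atg5* was at 35.2 to 57.1 normalized CPM in all mice but cont. mouse 1 (79.5), and *Atg10*, the E2-like enzyme for ATG12, was at 3.33 to 5.27 normalized CPM in the 9 mice. Neither was called.

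**Figure D3:**
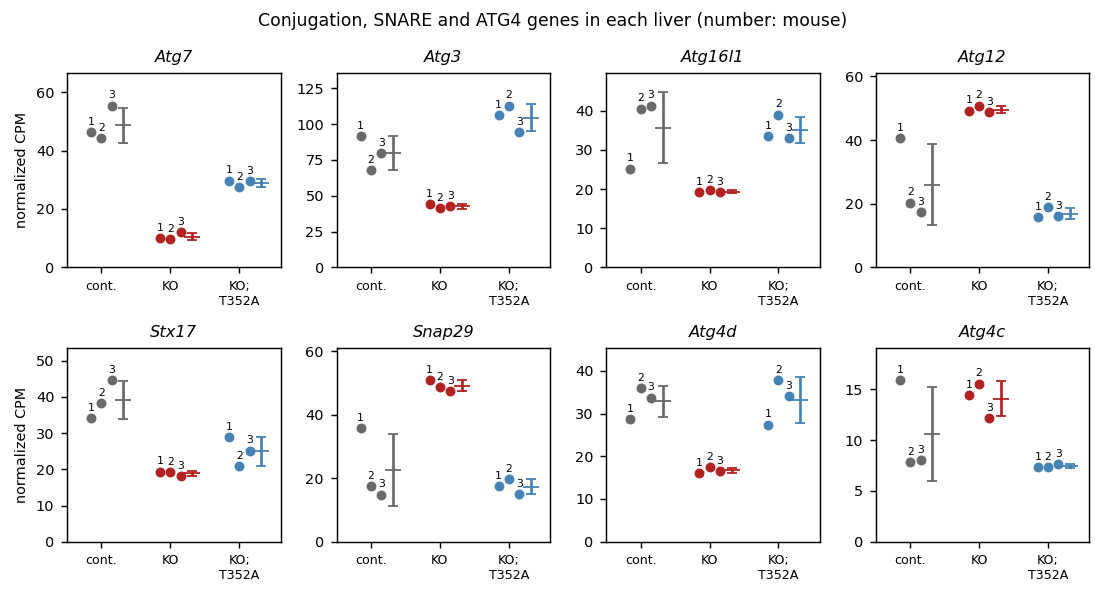
Normalized CPM (y axes from 0) of 8 members in each mouse (numbered points), with the mean and SD of the 3 mice of each genotype beside them. *Atg7*, *Atg3*, *Atg16l1*, *Stx17* and *Atg4d* are lowest in *Atg7*-KO and *Atg12* and *Snap29* are highest there. In *Atg12*, *Snap29* and *Atg4c* cont. mouse 1 lies above cont. mice 2 and 3.

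ATG4 proteases trim ATG8 proteins before conjugation and cut them from the membrane again. *Atg4d* was at 28.8, 36.0 and 33.7 normalized CPM in cont., 16.1, 17.4 and 16.5 in *Atg7*-KO and 27.4, 37.9 and 34.1 in T352A mice. *Atg7*-KO mice were below all 6 others (log2 fold change -0.98, SE 0.17, adjusted p = 0.00176, and log2 fold change 0.99, SE 0.17, adjusted p = 0.00128 for T352A against *Atg7*-KO), cont. and T352A overlapped, and both calls held under all 18 alternatives. *Kri1* overlaps 19.3% of the *Atg4d* exon bases. *Atg4c* was at 15.9, 7.85 and 8.02 in cont., 14.5, 15.6 and 12.2 in *Atg7*-KO and 7.35, 7.36 and 7.64 in T352A mice and was called lower in T352A than in *Atg7*-KO (log2 fold change -0.92, SE 0.27, adjusted p = 0.0181), but not without *Atg7*-KO mouse 1 or 2 or T352A mouse 1 or 2 (adjusted p 0.0521 to 0.0646). Without cont. mouse 1 it was also called higher in *Atg7*-KO against cont. (log2 fold change 0.82). *Atg4a*, at 10.2, 5.86 and 5.50 in cont., 9.14, 7.40 and 7.68 in *Atg7*-KO and 4.64, 5.04 and 3.66 in T352A mice, was called lower in T352A than in *Atg7*-KO too (log2 fold change -0.86, SE 0.27, adjusted p = 0.0229), though not without *Atg7*-KO mouse 1 or 3 or T352A mouse 1 or 3 (0.0524 to 0.0838). The pseudogene *Atg4a-ps* shares 41.3% of its transcript stretches, so its counts are uncertain. *Atg4b* was at 20.2 to 30.5 and was not called.

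Among the 5 ATG8 genes, whose products are conjugated to the membrane and bind receptors, 1 was called. That call was in *Atg7*-KO against cont., where 43.7% of all genes were called. *Map1lc3a* (LC3A) was at 38.0, 26.8 and 34.4 in cont., 58.2, 45.5 and 52.9 in *Atg7*-KO and 44.5, 54.3 and 39.7 in T352A mice, and was called higher in *Atg7*-KO (log2 fold change 0.66, SE 0.19, adjusted p = 0.0205), but not without cont. mouse 2 or *Atg7*-KO mouse 1 or 3 (adjusted p 0.0654 to 0.135). The T352A mice were above all cont. mice as well, by a difference that did not pass (log2 fold change 0.48, SE 0.19, adjusted p = 0.141) and did without cont. mouse 1 (log2 fold change 0.60, adjusted p = 0.0401). *Map1lc3b*, the LC3 most often used as a marker of autophagosomes, was at 126, 109 and 112 in cont., 129, 127 and 132 in *Atg7*-KO and 97.8, 104 and 111 in T352A mice. These ranges span 97.8 to 132, and no comparison passed (log2 fold change 0.16, SE 0.15, adjusted p = 0.387 for *Atg7*-KO, log2 fold change -0.31, SE 0.15, adjusted p = 0.0976 for T352A against *Atg7*-KO). *Gabarapl1* was at 343, 234 and 261 in cont., 210.5, 189 and 202 in *Atg7*-KO and 154, 246 and 236 in T352A mice. All *Atg7*-KO mice were below all cont. mice, and the difference did not pass (log2 fold change -0.48, SE 0.23, adjusted p = 0.108). The gene *1700101I11Rik* overlaps 28.3% of the *Gabarapl1* exon bases. *Gabarap* was at 142 to 273 and *Gabarapl2* at 34.8 to 83.4 with cont. mouse 1 highest in both, and neither was called. Without cont. mouse 1, *Gabarap* was called higher in *Atg7*-KO against cont. (log2 fold change 0.63), and *Gabarap* and *Gabarapl2* were called higher in T352A than in cont. (log2 fold changes 0.59 and 0.65, adjusted p 0.0289 and 0.0312).

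The SNAREs that fuse autophagosomes with lysosomes changed in opposite directions. *Stx17*, the syntaxin of the autophagosome, was at 34.3, 38.4 and 44.7 normalized CPM in cont., 19.4, 19.3 and 18.2 in *Atg7*-KO and 28.8, 20.8 and 25.2 in T352A mice. The 3 groups did not overlap, with *Atg7*-KO lowest (log2 fold change -1.04, SE 0.18, adjusted p = 0.00136), a call that held under all 18 alternatives. T352A did not pass against *Atg7*-KO (log2 fold change 0.40, SE 0.18, adjusted p = 0.0804) and was called lower than cont. (log2 fold change -0.65, SE 0.18, adjusted p = 0.0421), a call lost without any 1 of the 9 mice except cont. mouse 1 (adjusted p 0.0531 to 0.121). *Snap29*, the partner SNARE that bridges syntaxin 17 and the lysosomal SNARE, was at 35.7, 17.6 and 14.8 in cont., 51.0, 48.8 and 47.6 in *Atg7*-KO and 17.5, 19.7 and 14.9 in T352A mice. All *Atg7*-KO mice were above all others (log2 fold change 1.11, SE 0.30, adjusted p = 0.0136), with cont. mouse 1 nearest to them, and the call was lost without cont. mouse 2 (log2 fold change 0.85, adjusted p = 0.0882). T352A livers had 0.353 of the *Atg7*-KO level (log2 fold change -1.50, SE 0.30, adjusted p = 0.00268), and this was called under all 18 alternatives.

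The 6 ER-phagy receptor genes showed no shared direction. *Sec62* (ENSMUSG00000027706, chr3:30792875-30821263), a translocon subunit that acts as a receptor when the ER recovers from stress, was at 218, 275 and 286 normalized CPM in cont., 173, 151 and 159.6 in *Atg7*-KO and 642, 630.3 and 750.0 in T352A mice. The groups did not overlap, and T352A mice had 4.18 times the *Atg7*-KO level (log2 fold change 2.06, SE 0.19, adjusted p = 6.5e-05) and 2.59 times the cont. level (log2 fold change 1.38, SE 0.18, adjusted p = 0.00568). Both of these calls held under all 18 alternatives. The fall in *Atg7*-KO (log2 fold change -0.69, SE 0.18, adjusted p = 0.012) did not pass without *Atg7*-KO mouse 2 or 3 (adjusted p 0.0602 and 0.0528), and 11.7% of *Sec62* exon bases overlap the antisense gene *4933429H19Rik*. The strand setting of the counting is not given in the sources used here.

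*Fam134c* (*Retreg3*), a reticulon-like receptor that bends ER membrane, was at 87.5, 57.3 and 50.3 in cont., 59.2, 57.2 and 52.9 in *Atg7*-KO and 23.3, 43.4 and 28.0 in T352A mice. T352A mice were below all 6 others, with T352A mouse 2 closest to them, and cont. mouse 1 was the highest. It was called lower in T352A than in *Atg7*-KO (log2 fold change -0.84, SE 0.27, adjusted p = 0.0255) and than in cont. (log2 fold change -1.05, SE 0.27, adjusted p = 0.037), while *Atg7*-KO did not pass against cont. (log2 fold change -0.21, SE 0.27, adjusted p = 0.552). The former call was lost without any 1 *Atg7*-KO mouse or T352A mouse 1 or 3 (adjusted p 0.0533 to 0.0956), and the latter without cont. mouse 2, any 1 *Atg7*-KO mouse or T352A mouse 1 or 3 (0.0642 to 0.132).

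*Rtn3*, whose long form fragments ER tubules, was at 139.9, 93.4 and 85.1 in cont., 161, 160.1 and 158 in *Atg7*-KO and 122, 121 and 121 in T352A mice. All *Atg7*-KO mice were above all others (log2 fold change 0.59, SE 0.20, adjusted p = 0.0362), and the call, close to the fold threshold, was lost without any 1 of the 9 mice except cont. mouse 1 (log2 fold changes 0.41 to 0.60) and with DESeq2 (0.55). *Tex264*, a major receptor under starvation, was at 65.7, 55.7 and 66.3 in cont., 70.8, 64.0 and 70.6 in *Atg7*-KO and 77.0, 113 and 89.4 in T352A mice. T352A mice were above all 6 others, and neither comparison passed (log2 fold change 0.44, SE 0.18, adjusted p = 0.0603 against *Atg7*-KO and log2 fold change 0.57, SE 0.18, adjusted p = 0.0686 against cont.), while without cont. mouse 1 the latter was called (0.61, adjusted p = 0.0314). *Ccpg1*, a receptor induced by ER stress, was at 50.8, 36.0 and 34.8 in cont., 55.8, 55.1 and 49.4 in *Atg7*-KO and 33.4, 52.8 and 45.0 in T352A mice and did not pass in *Atg7*-KO (log2 fold change 0.40, SE 0.21, adjusted p = 0.156), except without cont. mouse 1 (0.59, adjusted p = 0.0192). Of its exon bases, 55.8% overlap other genes (*Pigb* and *Gm44503*), so its counts are uncertain. *Fam134b* was at 90.9 to 168 and was not called.

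**Figure D4:**
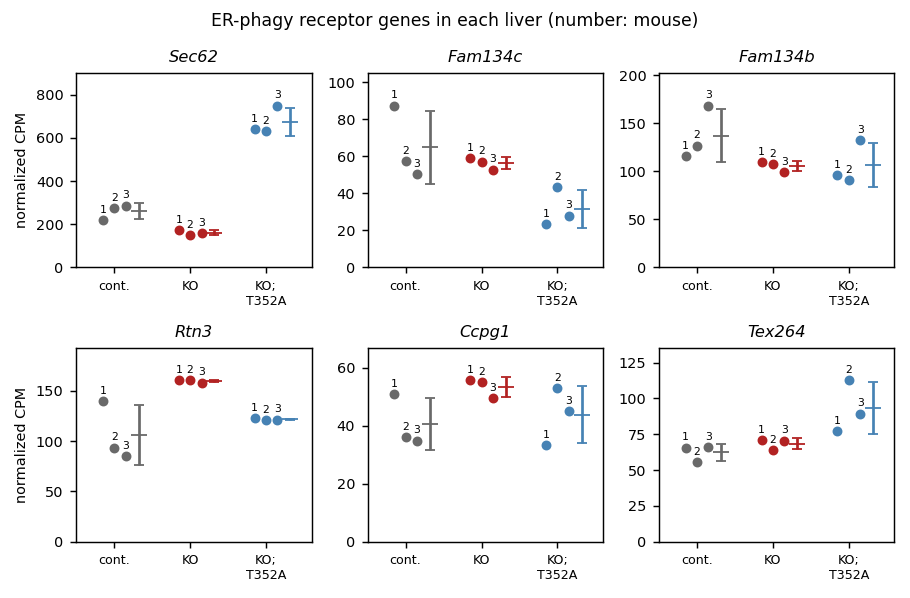
Normalized CPM (y axes from 0) of the 6 ER-phagy receptor genes in each mouse (numbered points), with the mean and SD of 3 mice. *Sec62* is highest in T352A mice (630 to 750.0) and *Fam134c* is lowest there (23.3 to 43.4), and *Rtn3* is highest in *Atg7*-KO mice.

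**Figure D5:**
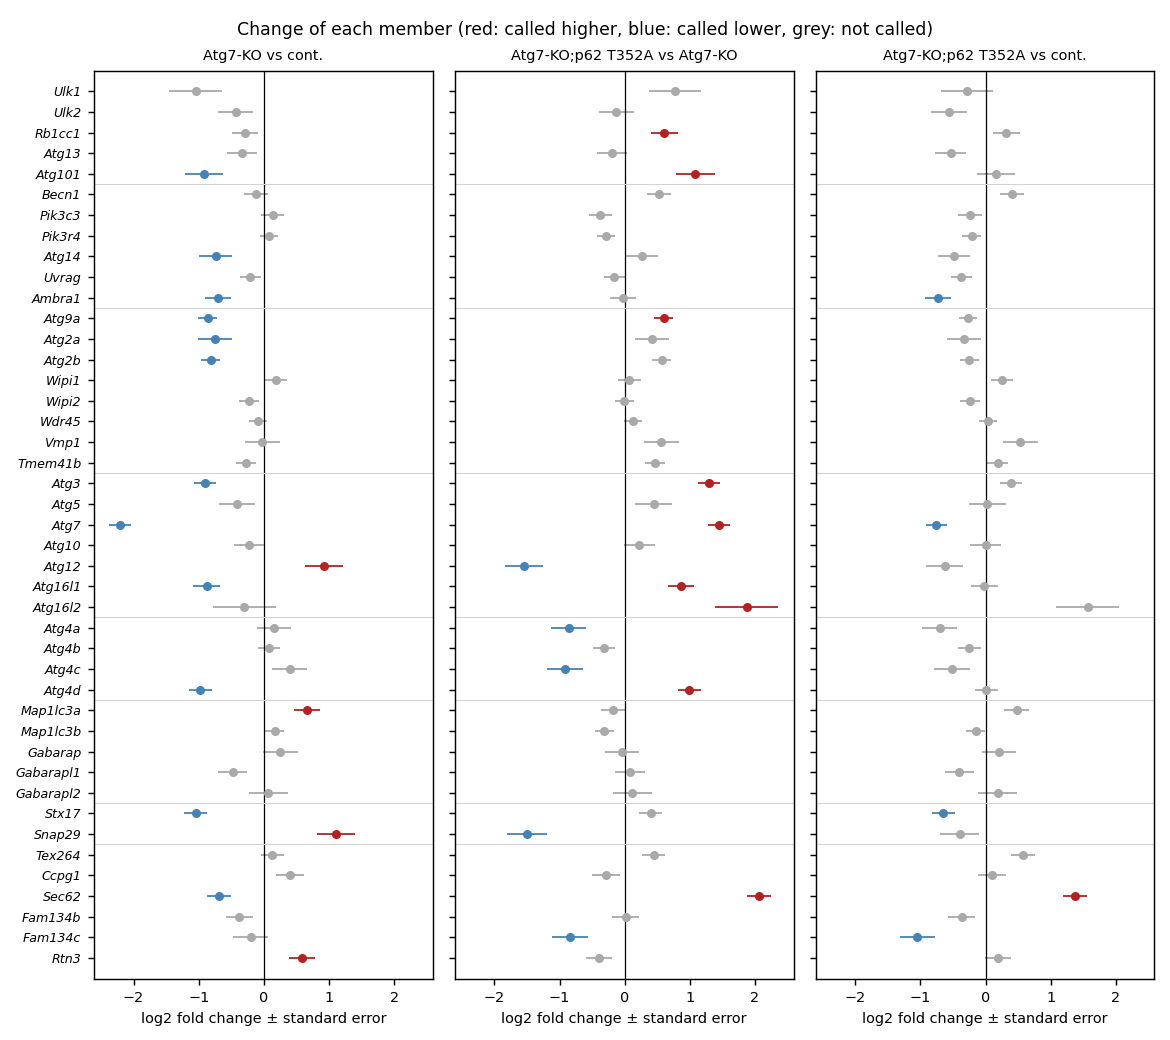
Log2 fold change of each member with its standard error in the 3 comparisons (panels), drawn red where called higher, blue where called lower and grey where not called. The left and middle panels share the *Atg7*-KO mice. Coloured points number 16 in the left panel, 14 in the middle and 5 in the right.

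Summed over the 43 genes, normalized CPM were 2756 ± 186 in cont., 2342 ± 65.5 in *Atg7*-KO and 3092 ± 55.3 in T352A mice (SD, n = 3), and the 3 groups did not overlap. Without *Sec62* the other 42 genes summed to 2314 to 2738 in cont., 2143 to 2243 in *Atg7*-KO and 2405 to 2427 in T352A mice, so that cont. and T352A overlapped. Per kb of mean transcript length, the highest members in cont. were *Gabarapl1* (295 ± 60.0 normalized CPM per kb), *Gabarap* (214 ± 86.3), *Vmp1* (191 ± 67.5), *Sec62* (151 ± 21.1) and *Ulk1* (109 ± 52.6), and neighbours in this order did not differ beyond their spread. In T352A livers *Sec62* was the highest of the 43, at 392 ± 38.3, before *Vmp1* at 277 ± 52.8. With the longest transcript in place of the mean, *Sec62* was at 170.0 and *Gabarap* at 159.5 in T352A livers. Levels per length rest on that choice of transcript.

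Genes around this machinery were read from 4 lists. How their calls change when a mouse is left out was not examined. Of 24 tested genes of upstream control, 5 passed as higher and 6 as lower in *Atg7*-KO against cont., and also 5 as higher and 6 as lower in T352A against *Atg7*-KO (45.8% in each, beside 43.7% and 51.0% of all genes). *Rragd*, a Rag GTPase that controls mTORC1 at the lysosome, was at 2.52, 2.55 and 2.20 normalized CPM in cont., 81.1, 62.7 and 63.5 in *Atg7*-KO and 1.93, 1.89 and 4.50 in T352A mice (log2 fold change 4.82, SE 0.35, adjusted p = 2.03e-05, then log2 fold change -4.63, SE 0.34, adjusted p = 2.59e-05), so that *Atg7*-KO mice were far above all 6 others. *Flcn*, whose product activates that GTPase, was at 27.5, 163 and 203 in cont., 22.7, 22.4 and 29.3 in *Atg7*-KO and 61.2, 41.3 and 94.6 in T352A mice, with cont. mouse 1 within the *Atg7*-KO range (log2 fold change -2.40, SE 0.61, adjusted p = 0.0101). Of 15 tested genes of tethering and lysosome fusion, 2 were higher and 3 lower in *Atg7*-KO (33.3%). *Tecpr1*, a tether of autophagosomes and lysosomes, was at 8.08, 34.2 and 34.4 in cont., 8.66, 8.42 and 9.17 in *Atg7*-KO and 25.4, 17.8 and 18.2 in T352A mice (log2 fold change -1.54, SE 0.45, adjusted p = 0.019), and *Vps16*, of the HOPS complex, at 21.7, 52.8 and 54.1 in cont., 19.3, 19.8 and 19.5 in *Atg7*-KO and 39.5, 39.3 and 39.6 in T352A mice (log2 fold change -1.13, SE 0.30, adjusted p = 0.0121). In both, cont. mouse 1 was close to the *Atg7*-KO mice.

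Of 16 other ER-phagy genes, 3 were lower in *Atg7*-KO than in cont. and none higher, where 22.1% of all genes were lower and 21.6% higher. *Ddrgk1* and *Ufl1* are described here, and both belong to the UFMylation pathway, which modifies ribosomes at the ER. *Ddrgk1* was at 86.2, 89.9 and 131 in cont., 51.7, 45.5 and 47.9 in *Atg7*-KO and 80.3, 149 and 87.3 in T352A mice (log2 fold change -1.08, SE 0.27, adjusted p = 0.00886, then log2 fold change 1.13, SE 0.27, adjusted p = 0.00606), with *Atg7*-KO mice below all others. *Ufl1*, the ligase, was at 59.4, 44.2 and 36.7 in cont., 26.4, 25.1 and 23.4 in *Atg7*-KO and 48.9, 30.5 and 32.6 in T352A mice (log2 fold change -0.91, SE 0.24, adjusted p = 0.0114), again with *Atg7*-KO below all others. Of 12 selective autophagy receptors, 2 were higher and 2 lower in *Atg7*-KO (33.3%), led by *Sqstm1* (log2 fold change 1.24, SE 0.22, adjusted p = 0.00189) and *Fundc1*, a mitophagy receptor, at 12.8, 5.39 and 4.18 in cont., 19.3, 16.2 and 16.2 in *Atg7*-KO and 7.64, 7.99 and 7.57 in T352A mice (log2 fold change 1.18, SE 0.35, adjusted p = 0.0214). For *Fundc1*, cont. mouse 1 was nearer to the *Atg7*-KO mice than any other mouse. None of the 12 was called between T352A and cont., where 11.6% of all genes were called.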

How the data were processed

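The authors deposited expected counts for each gene, made with RSEM from single-end reads that were trimmed with Trim Galore and mapped to mm10 with STAR. Versions, annotation and strand setting are not given in the sources used here. The labels name a column kit and the methods TRIzol for the RNA. Columns were assigned by genotype and mouse number, and 3 labelled mice with T352A alone have no column among those used. Counts were rounded and fitted with edgeR 4.0.16 in R 4.3.3 (TMM, filterByExpr, glmQLFit, glmQLFTest). Standard errors came from the F statistic, and normalized CPM are scaled by TMM. The members and all gene lists were chosen with earlier results of these data known. Named in full were up to 5 called members per role group, 8 members chosen by name (*Map1lc3b*, *Gabarapl1*, *Ulk1*, *Becn1*, *Tex264*, *Ccpg1*, *Sec62* and *Fam134c*), the 2 called genes per further list that changed most in *Atg7*-KO, and *Sqstm1*. Listed *Rubcn*, *Vamp7* and *Ly6g* were not matched in the table. A further listed gene is not reported here. Positions are from GENCODE vM21 (GRCm38), promoters from RefSeq (GRCm38.p6). Alternatives were DESeq2 1.42.0, other scalings, filters and call rules, the mouse number as a block, and mice left out. On simulated counts for *Atg7*-KO against cont. (13691 genes, dispersion 0.08 for every gene), 98% of 200 genes with a fold change of 4 were recovered. Of 13491 unchanged genes, 13 were called. Most member calls had smaller fold changes and no outlying mouse was simulated, so this does not measure how reliable those calls are. Replicates are separate mice by their labels. The p-values rest on a spread between mice estimated over all 3 genotypes in 1 fit. Leaving out a mouse can therefore change calls in a comparison it is not part of.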

Additional observations from a re-analysis of the deposited data

How the results depend on the processing

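No call of a member reversed under any of the 18 alternatives. Of the calls, 5 of 16 for *Atg7*-KO against cont. (*Atg9a*, *Atg3*, *Atg7*, *Atg4d* and *Stx17*), 7 of 14 for T352A against *Atg7*-KO (*Atg3*, *Atg7*, *Atg12*, *Atg16l2*, *Atg4d*, *Snap29* and *Sec62*) and 1 of 5 for T352A against cont. (*Sec62*) were made under all 18. With 1 mouse left out, *Atg7*-KO against cont. gave 0 to 7 members higher, 7 to 13 lower and medians of -0.38 to -0.064. T352A against *Atg7*-KO gave 7 to 11, 2 to 5 and 0.080 to 0.14, and against cont. 1 to 5, 0 to 6 and -0.21 to -0.085. The 7 higher and the 5 higher came without cont. mouse 1, and the 0 higher without cont. mouse 2. Testing against a fold change of 1.5 (glmTreat) left 0 higher and 5 lower, then 5 and 2, then 1 and 0. The median moved to -0.12 with upper-quartile scaling, -0.14 with at least 10 counts in every mouse and -0.057 with the mice numbered 1 left out for *Atg7*-KO against cont. It moved to -0.024 and 0.041 with the same scaling and filter for T352A against *Atg7*-KO, and to -0.039 without the mice numbered 1 against cont. In that last comparison 2 members were higher with DESeq2 and 3 without the mice numbered 1, and 2 were lower with no filter. The cause was not tested. With mouse numbers as a replicate block 1 was lower there (*Atg7*, with *Ambra1*, *Stx17* and *Fam134c* no longer called), *Rb1cc1* was no longer called for T352A against *Atg7*-KO, and the other counts stayed within 1.5 times. The numbers are not known to mark a shared litter or day, though number 1 marks the mouse with low *Xist* in each genotype. Deviations of same-numbered mice correlated at a mean of 0.15 (-0.20 to 0.32, 6 of 9 pairs over 0.1), and those of other pairs at -0.071. As deviations were taken from the mean of each genotype, the value for other pairs is not independent of that for same-numbered pairs. The lowest member count in a mouse was 32.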

Other observations

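Ratios of counts within 1 liver do not depend on how libraries are scaled, and a few pairs were formed after the values were seen, so they carry no test. *Snap29* had between 2.53 and 2.63 counts for each count of *Stx17*, its partner SNARE, in *Atg7*-KO mice, between 0.332 and 1.04 in cont. mice and between 0.591 and 0.946 in T352A mice. The ratio of *Atg12* to *Atg16l1* was 2.53 to 2.58 in *Atg7*-KO, 0.418, 0.501 and 1.61 in cont. and 0.471 to 0.488 in T352A mice, and that of *Atg12* to *Atg3* was 1.11 to 1.24, 0.216 to 0.442 and 0.148 to 0.171. In each of these ratios the *Atg7*-KO mice were above all 6 others, and cont. mouse 1 was the highest of the cont. mice.

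Among ER-phagy receptors, *Sec62* had 14.5, 26.8 and 27.6 counts for each count of *Fam134c* in the 3 T352A mice, 2.50 to 5.69 in cont. and 2.64 to 3.02 in *Atg7*-KO mice. The ratio of *Sec62* to *Tex264* was 5.58 to 8.39 in T352A, 3.32 to 4.94 in cont. and 2.26 to 2.45 in *Atg7*-KO mice, so the 3 genotypes did not overlap in it.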
